A study of Homo sapiens with 15 samples.

Results

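The mitochondrial ribosomal proteins were taken as every gene whose symbol in the arrays' annotation starts with MRPL, for the large subunit, or MRPS, for the small subunit, followed by a digit. They came to 50 of the 12149 genes measured, 31 named MRPL and 19 named MRPS. Each gene was read from the probe set, the group of oligonucleotides that reports 1 transcript, with the highest mean among those assigned to that gene alone. In total 48 of the 50 were tested, because MRPL41 and MRPL52 lay among the dimmest 25% of genes, which entered no test. Mean levels ran from 6.82 for MRPL41, 6.92 for MRPL52 and 7.01 for MRPS18C to 10.66 for MRPL20, 10.80 for MRPL57 and 11.35 for MRPL3, but levels of different probe sets do not compare as amounts of RNA. MRPL43, MRPS6 and MRPS15 have no values here because their probe sets are assigned to several genes or differently in the 2 annotations.

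The study profiled HMT3522 human breast cells, as total RNA from 15 samples, on Affymetrix arrays of the U133A kind. All cells, S1 included, were cultured in three-dimensional laminin-rich extracellular matrix (lrECM). S1 is the nonmalignant line of this series (3 samples), and T4 is the malignant line that descends from it (3 samples). The 9 other samples are T4 cells that the labels call revert (T4R), each given another agent. GM6001 is a broad metalloproteinase inhibitor, the agent labelled MMPs and ADAMs is known only by these target families, and TNF protease inhibitor–2 acts on metalloproteinases that release membrane-bound ligands. PD98059 blocks MEK and LY294002 blocks PI3 kinase, while dominant-negative Rap1 interferes with a small GTPase. Tyrphostin AG 1478 and the antibody mAb225 block the EGF receptor, and the antibody AIIB2 blocks β1-integrin. There was 1 sample per agent, the labels give no dose, time or vehicle, and a T4R mean is therefore a mean over agents. The labels do not state whether the samples numbered 1 to 3 are independent cultures, and the spread among them may be technical. A p-value here covers no more than 1 estimate of spread shared by S1, T4 and T4R. That estimate includes the differences between the 9 agents. S1 and T4 are 1 line each, so a difference between them is a difference between these lines.

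Mitochondria carry their own ribosome, which makes the few respiratory-chain subunits encoded in mitochondrial DNA. Its ribosomal RNAs come from that DNA, but all of its proteins are encoded in the nucleus, made in the cytosol and imported. Some of these proteins have a bacterial counterpart, and others are found in mitochondria and not in bacterial ribosomes. The mitochondrial ribosomal proteins are expressed in every tissue with mitochondria, and inherited defects of several of them impair oxidative phosphorylation.

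The deposited values were on a log2 scale, in 2 tables of different array types. The first held S1 samples 1 and 2, all T4 samples and the agents GM6001, MMPs and ADAMs, and LY294002 (8 samples). The second held S1 sample 3 and the other agents (7 samples). Each comparison came from 1 limma fit over all 15 samples with the table as a covariate, and adjusted p is Benjamini-Hochberg over the 9111 genes tested, called under 0.05. Differences are log2 values ± SE, and a fold is the same difference on a linear scale. The table mattered for these genes: the term for the second table was below 0 for 43 of 48, with a median of -0.28, against a median of 0.02 over all tested genes. T4 has no sample in the second table, so the 6 agents there reach T4 only through the table term. The fit takes that term from S1 sample 3 against S1 samples 1 and 2. It also takes it from the second table's agents against the first table's agents, so array type and agent are partly mixed in it. Between S1 samples 1 and 2, 16 genes differed by 2-fold or more, but 553 between samples 1 and 3, which lie in different tables. Within the first table, T4 sample 3 differed from T4 sample 1 at 356 genes, against 6 between T4 samples 1 and 2. The epithelial keratins KRT5 and KRT14 were well above the filter in all samples (13.12 to 14.13 and 13.58 to 14.52), as were the luminal keratins KRT18 (10.41 to 11.81) and KRT8 (8.43 to 10.15), whereas the luminal keratin KRT19 stayed between 6.52 and 6.78, below the filter level of 6.97. KRT18 was higher in T4 than in S1 (0.98 ± 0.21, adjusted p = 0.00331) and lower in T4R than in T4 (-1.07 ± 0.19, adjusted p = 0.00255). Most of the 6 epithelial markers tested went the other way: 4 were below 0 in T4 against S1 (median -0.21, none called lower). In T4R against T4, 5 were above 0, with 1 called higher, and 1 was called higher in T4R against S1. CDH1 was at 10.37 to 10.67 in S1, 9.75 to 10.20 in T4 and 9.34 to 11.92 in T4R. EPCAM was at 7.76 to 8.16, 7.25 to 7.69 and 7.51 to 8.80. Of the 6 fibroblast markers 4 were above the filter, and their mean over the list was 7.15 to 7.19 in S1, 7.24 to 7.398 in T4 and 7.29 to 7.89 in T4R. COL1A1 (1.47 ± 0.43, adjusted p = 0.0237) and COL3A1 (0.21 ± 0.07, adjusted p = 0.0486) were called higher in T4R than in S1, and COL1A1 was at 7.196 to 8.62 in S1 and at up to 10.67 in T4R. Of 4 endothelial markers 1 (KDR) was above the filter, with list means of 6.81 to 7.004, 6.75 to 6.88 and 6.80 to 7.05. Of 4 leukocyte markers 2 (CD14 and CSF1R) were above it, with list means of 6.99 to 7.24, 7.29 to 7.45 and 7.19 to 7.54, and CD14 was called higher than in S1 both in T4 (0.97 ± 0.26, adjusted p = 0.0132) and in T4R (0.77 ± 0.21, adjusted p = 0.0183). PTPRC, PECAM1, CDH5 and LUM had means below the filter level. Other fibroblast markers did not stay low in every sample. DCN ran from 7.21 to 9.57, with 8.70 in S1 sample 3, and PDGFRA, which was not tested, from 6.52 to 7.71. Both were highest with dominant-negative Rap1. The part of these markers in the differences below was not tested. In bulk RNA, fewer cells and less RNA per cell cannot be told apart.

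The comparison of T4 with S1 asks how the malignant cells differ from the nonmalignant ones. Among the mitochondrial ribosomal proteins called in T4, nearly all were lower: 17 of the 48 tested fell, MRPL17 alone rose, and 30 were not called. Over all genes 14.6% were called higher and 12.3% lower, whereas 2.08% of the mitochondrial ribosomal proteins were called higher and 35.4% lower. Their median difference was -0.20 against 0.01 over all genes, and 34 of 48 were below 0. The largest falls were those of MRPL13, MRPL57, MRPS27, MRPS31 and MRPS30, between 1.80-fold and 2.02-fold. The count of 17 was 7 with no table term and quantile normalization across tables, and 5 with the replicate number as a block in place of the table. It also rested on individual samples: it was 9 without S1 sample 1, 7 without S1 sample 2, 10 without T4 sample 1 and 8 without T4 sample 2. Of the 18 calls, those of MRPL13, MRPL57, MRPS27, MRPS31 and MRPL17 held in every one of the 28 alternative settings run, and those of MRPS30 and MRPL48 in every fit that left out 1 sample.

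**Figure D1:**
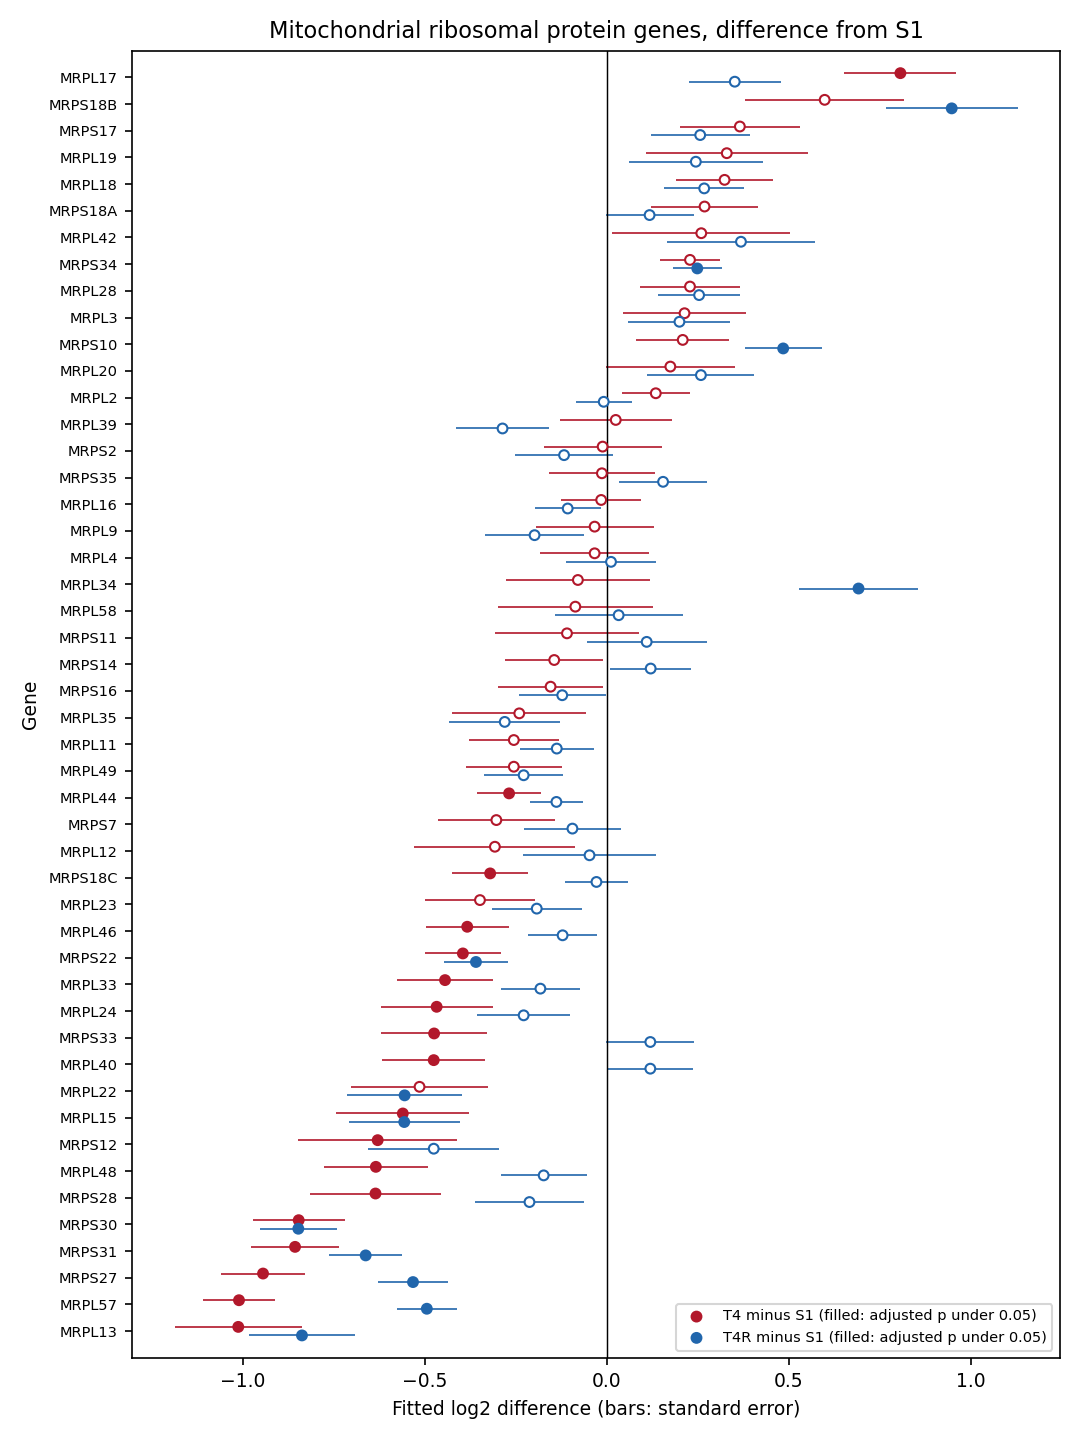
Fitted log2 differences (± SE) of the 48 tested mitochondrial ribosomal proteins, T4 minus S1 and T4R minus S1, with filled symbols at a limma adjusted p under 0.05. In T4, 17 are called lower and 1 higher, and in T4R, 8 are called lower and 4 higher.

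The large-subunit protein MRPL13, the counterpart of bacterial L13 (entrez gene 28998), had values of 11.02, 11.34 and 10.93 in S1 samples 1 to 3 and of 10.17, 10.01 and 10.48 in T4 samples 1 to 3. The lowest S1 sample was above the highest T4 sample. The fitted difference was -1.01 ± 0.18, 2.02-fold, with an adjusted p of 0.000951. In T4R the values ran from 9.73 through a median of 10.03 to 10.62, below every S1 sample in all 9 agents. The fit gave T4R minus S1 as -0.84 ± 0.15 (adjusted p = 0.00111) and T4R minus T4 as 0.17 ± 0.16, which was not called (adjusted p = 0.534).

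MRPL57 (entrez gene 78988), a large-subunit protein with no bacterial counterpart, was at 11.42, 11.65 and 10.98 in S1 and at 10.40, 10.58 and 10.40 in T4. The groups did not overlap, and the fall of 1.01 ± 0.10 had the smallest adjusted p of these genes (1.35e-05). T4R samples ran from 10.57 through 10.67 to 11.04, and 8 of the 9 lay above every T4 sample. MRPL57 was one of the genes that rose with the agents, by 0.52 ± 0.09 (adjusted p = 0.00266), and it stayed below S1 by 0.50 ± 0.08 (adjusted p = 0.000892). In a fit of single probe sets, its other 2 probe sets also fell in T4, by 0.74 (adjusted p = 0.00101) and 0.29 (adjusted p = 0.0152). For T4R against S1 the first of these gave -0.35 (adjusted p = 0.0338), and the second -0.06, not called (adjusted p = 0.632). For T4R against T4 they gave 0.40 (adjusted p = 0.0454) and 0.23 (adjusted p = 0.051).

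MRPS27 (entrez gene 23107) is a small-subunit protein with pentatricopeptide repeats, a fold that binds RNA. It was at 10.47, 10.38 and 10.47 in S1 and at 9.61, 9.65 and 9.44 in T4, with a gap of over 0.7 between the groups. The difference was -0.95 ± 0.12, a 1.93-fold fall (adjusted p = 7.21e-05). In T4R it ran from 9.58 through 9.88 to 10.14, all below S1. T4R exceeded T4 by 0.41 ± 0.11 (adjusted p = 0.0209) and stayed below S1 by 0.53 ± 0.10 (adjusted p = 0.00144). The rise over T4 was no longer called without T4 sample 3, without GM6001 or without LY294002.

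MRPS31 (entrez gene 10240) is a small-subunit protein without a bacterial counterpart. It was at 9.81, 9.84 and 9.69 in S1, at 9.12, 9.05 and 8.85 in T4, and between 8.69 and 9.37 (median 9.04) in T4R. All T4 and T4R samples lay below all S1 samples. T4 was lower than S1 by -0.86 ± 0.12 (adjusted p = 0.000216) and T4R by -0.66 ± 0.10 (adjusted p = 0.000434). Its second probe set gave -0.84 for T4 and -0.64 for T4R.

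MRPS30 (entrez gene 10884) carries a small-subunit name, although structures of the mitochondrial ribosome place the protein in the large subunit. Its values were 10.07, 9.83 and 9.12 in S1 and 9.02, 8.88 and 9.07 in T4, so that S1 sample 3 lay only just above T4. In T4R it ran from 8.38 through 8.53 to 8.99. The fit, which allows for the table, gave -0.85 ± 0.13 for T4 (adjusted p = 0.000329) and -0.85 ± 0.11 for T4R (adjusted p = 9.42e-05) against S1. Its 2 probe sets did not behave alike between T4R and T4, with -0.00 for the one used and 0.50 for the other (adjusted p = 0.0105).

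The 12 other genes that fell in T4 did so by less. The large-subunit members among them were MRPL48 (-0.64 ± 0.14, adjusted p = 0.00504), MRPL15, MRPL40, MRPL24, MRPL33, MRPL46 and MRPL44, down to -0.27. The small-subunit members were MRPS28 (-0.64 ± 0.18, adjusted p = 0.0188), MRPS12, MRPS33, MRPS22 and MRPS18C. MRPS12, the counterpart of the bacterial protein at the decoding centre, was the least stable call: its difference of -0.63 had an adjusted p of 0.0454 and was lost in 14 of 28 settings. Its 3 dimmer probe sets gave -0.09 to -0.03, none of them called. MRPS14 shows the reverse: the brighter probe set gave -0.15 (adjusted p = 0.525), and the dimmer one, not used for the counts, gave -0.79 (adjusted p = 0.00112). Between T4R and T4 the dimmer one rose by 1.03 (adjusted p = 0.000266), more than any probe set used. The brighter one gave 0.265 there (adjusted p = 0.221). In T4R against S1 the dimmer one gave 0.24 and was not called (adjusted p = 0.181).

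MRPL17 (entrez gene 63875), the counterpart of a bacterial protein beside the exit tunnel, was the exception in T4. Its values were 9.46, 9.66 and 9.59 in S1 and 10.51, 10.31 and 10.53 in T4. Every T4 sample was higher than every S1 sample, and the rise was 0.81 ± 0.15, 1.75-fold (adjusted p = 0.00172). T4R samples ran from 9.54 through 9.82 to 10.20, all below T4. T4R was lower than T4 by -0.46 ± 0.14, just called (adjusted p = 0.0464), and that call was lost when any of 11 of the 15 samples was left out, S1 samples 1 to 3 and T4 samples 1 to 3 among them. T4R minus S1 was 0.35 ± 0.13 and was not called (adjusted p = 0.0625).

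Among members fixed by name for their roles, several did not pass the test in T4. MRPL12, which forms the flexible stalk that recruits translation factors, gave -0.31 ± 0.22 (adjusted p = 0.339). MRPL11, at the base of the same stalk, gave -0.26 ± 0.12 (adjusted p = 0.141). MRPL3 gave 0.21 ± 0.17 (adjusted p = 0.393) and MRPS16 -0.16 ± 0.15 (adjusted p = 0.48), and both genes are known from inherited defects of mitochondrial translation. With the replicate number as a block beside the table, MRPL11 (-0.42, adjusted p = 0.0116) and MRPL12 (-0.53, adjusted p = 0.00651) were called lower. MRPS18B also passed in that fit, as higher (0.64, adjusted p = 0.00172, against 0.60 and 0.0575 without the block). In all, that fit added 10 calls and lost 2, those of MRPL44 (-0.23, adjusted p = 0.116) and MRPS18C (-0.31, adjusted p = 0.135). The other 7 added calls were lower. Because S1 sample 3 is the single second-table sample of these groups, this fit takes the difference from samples 1 and 2 alone, 2 against 2. MRPL20, one of the brightest members, gave 0.17 ± 0.18 without the block (adjusted p = 0.519) and -0.05 with it (adjusted p = 0.757).

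The paralogs MRPS18A, MRPS18B and MRPS18C are all counterparts of bacterial S18, and the difference between them was not tested. MRPS18B gave 0.60 ± 0.22 (adjusted p = 0.0575), MRPS18A 0.27 ± 0.15 (adjusted p = 0.20), and MRPS18C fell by 0.32 ± 0.10 (adjusted p = 0.0344), a call lost in 11 of 27 settings. In the fit of single probe sets, the second probe sets of MRPS18A (0.31, adjusted p = 0.0102) and MRPS18B (0.48, adjusted p = 0.0478) were called higher in T4. MRPS18C was dim, at 6.64 to 7.24 in S1 and T4, close to the filter level.

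By symbol, 9 MRPL genes fell and 1 rose among 29 tested (median -0.24). Among 19 MRPS genes 8 fell and 0 rose (median -0.16). This split follows the names and not the place of each protein. MRPS30, for example, counts among the MRPS genes although its protein is placed in the large subunit. Of the 32 with a bacterial counterpart, 7 fell and 1 rose (median -0.10). Of the 16 tested without one, 10 fell and 0 rose (median -0.39). The difference between these classes was not tested, and each is read against the 12.3% of all genes called lower.

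**Figure D2:**
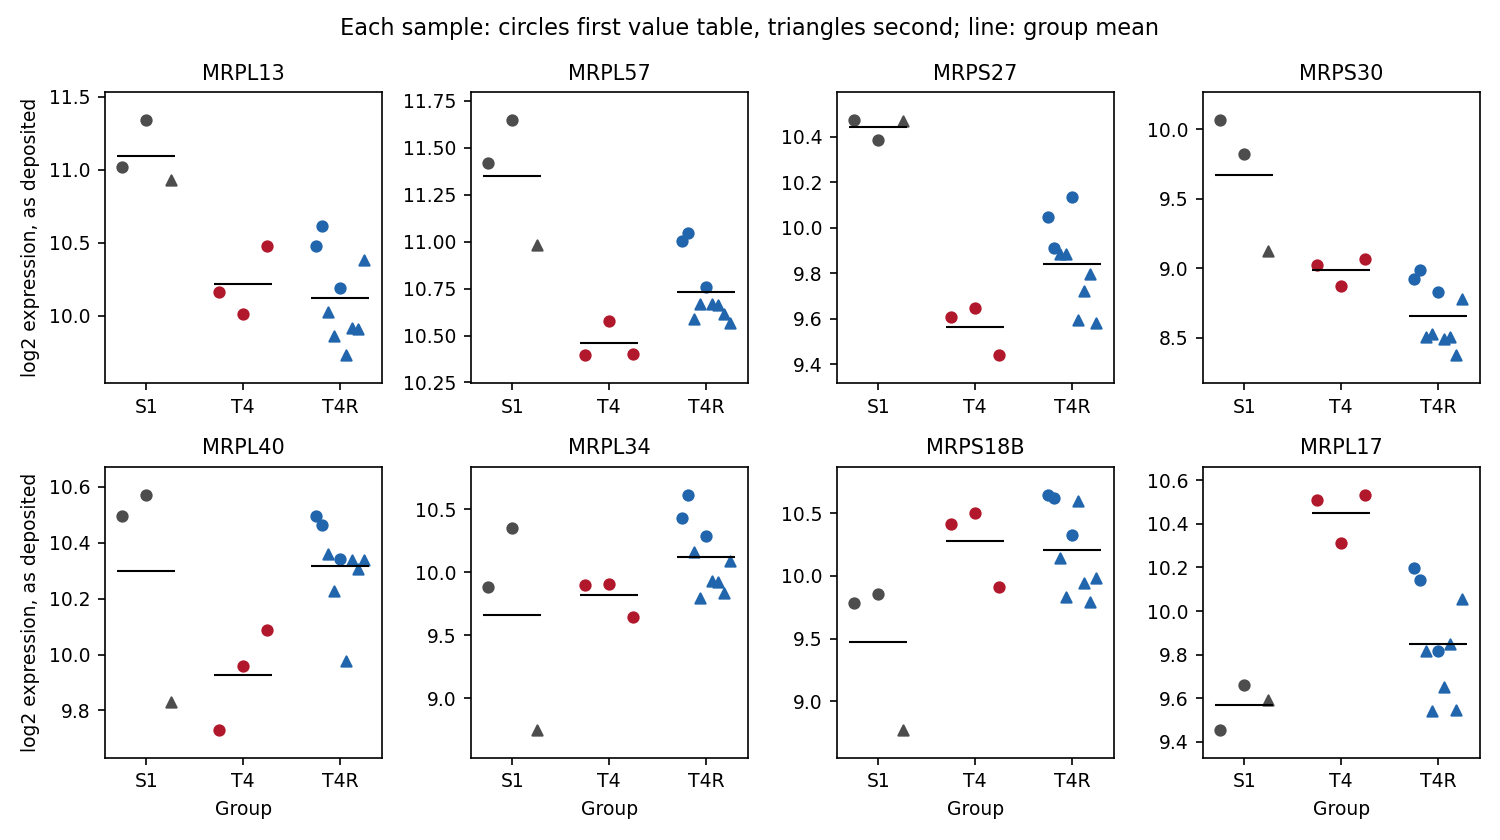
Deposited log2 values of 8 mitochondrial ribosomal proteins in each S1, T4 and T4R sample, with circles for the first table, triangles for the second and a line at the group mean. MRPL13 and MRPS27 separate S1 from T4 (MRPL13 10.93 to 11.34 against 10.01 to 10.48), MRPL17 runs the other way, and S1 sample 3 is low for MRPL34 (8.75) and MRPS18B (8.78).

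The comparison of T4R with T4 asks what the agents share. Most mitochondrial ribosomal proteins were not called: 6 of 48 rose in T4R, 1 (MRPL17) fell and 41 did not pass. Over all genes 6.46% were called higher and 8.44% lower, and among these genes 12.5% and 2.08%. The median difference was 0.12 against -0.00 over all genes, with 34 of 48 above 0. With no table term and quantile normalization across tables the median turned to -0.02 with 3 genes higher, and with array weights 18 were higher. The risers were MRPL34, MRPL40, MRPS33, MRPL57, MRPL48 and MRPS27, of which all but MRPL34 had fallen in T4. Only the calls of MRPL40 and MRPL57 held in all 26 settings, while that of MRPS33 held in every fit without 1 sample. The calls of risers and of T4's fallers share the T4 samples, so a low value in T4 enters both.

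MRPL40 (entrez gene 64976) lies in the region deleted in DiGeorge syndrome and codes for a large-subunit protein without a bacterial counterpart. Its values were 10.50, 10.57 and 9.83 in S1, 9.73, 9.96 and 10.09 in T4 and 9.98 to 10.50 (median 10.34) in T4R. S1 sample 3, in the second table, lay within the T4 range, and the T4R range overlapped both groups. The fitted T4R minus T4 difference was 0.60 ± 0.13, 1.51-fold (adjusted p = 0.00867), and T4R minus S1 was 0.12 ± 0.12 (adjusted p = 0.522). MRPS33, a small-subunit protein without a bacterial counterpart, gave nearly the same figures. It was at 10.17, 10.45 and 9.40 in S1, at 9.83, 9.68 and 9.52 in T4 and at 9.66 to 10.24 (median 9.96) in T4R. S1 sample 3 was below all T4 samples. T4R exceeded T4 by 0.59 ± 0.14 (adjusted p = 0.0104).

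MRPL48 was at 9.55, 9.6 and 8.86 in S1, at 8.99, 8.83 and 8.68 in T4 and at 8.83 to 9.56 (median 8.96) in T4R. The 9.56 is the LY294002 sample, and without it the rise over T4 of 0.46 ± 0.13 (adjusted p = 0.0321) was no longer called. That call was lost in 10 of 26 settings.

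MRPL34 (entrez gene 64981), the counterpart of a small bacterial large-subunit protein, had the largest rise over T4 among the probe sets used. Its values were 9.89, 10.35 and 8.75 in S1, 9.90, 9.91 and 9.64 in T4 and 9.79 to 10.61 (median 10.09) in T4R. S1 sample 3 stood 1.1 or more below the other S1 samples, and the T4R range overlapped S1 and T4. T4R exceeded T4 by 0.77 ± 0.18 (adjusted p = 0.0128), a call lost without T4 sample 3 (0.69, adjusted p = 0.0517), with the table fitted as a random effect (0.59, adjusted p = 0.0829) and with no table term and quantile normalization across tables (0.38, adjusted p = 0.298). T4R exceeded S1 by 0.69 ± 0.16 (adjusted p = 0.00784), but without S1 sample 3 that difference was 0.33 (adjusted p = 0.172), and in the first table alone 0.33 (adjusted p = 0.214).

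The comparison of T4R with S1 asks how far the treated malignant cells differ from the nonmalignant line. Of 48 genes 4 were higher in T4R, 8 were lower and 36 were not called. Over all genes 11.8% were called higher and 11.4% lower, and among the mitochondrial ribosomal proteins 8.33% and 16.7%. With array weights 10 were higher and 17 lower, and with S1 sample 3, T4 sample 3 and the Rap1 sample left out together 13 were lower. The 8 lower genes were MRPS30, MRPL13, MRPS31, MRPL15, MRPL22, MRPS27, MRPL57 and MRPS22, from -0.85 to -0.36, and all but MRPL22 were also lower in T4. The 4 higher genes were MRPS18B, MRPL34, MRPS10 and MRPS34. The calls of MRPL13, MRPL57, MRPS10, MRPS18B, MRPS22, MRPS27, MRPS30 and MRPS31 held in all 26 settings. Those of MRPL15, MRPL22, MRPL34 and MRPS34 did not.

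MRPS18B (entrez gene 28973) was at 9.79, 9.85 and 8.78 in S1, at 10.41, 10.51 and 9.91 in T4 and at 9.79 to 10.65 (median 10.14) in T4R. S1 sample 3 lay about 1 below the other S1 samples, all T4 samples were above all S1 samples, and the lowest T4R sample lay between S1 samples 1 and 2. T4R exceeded S1 by 0.95 ± 0.18, 1.93-fold (adjusted p = 0.00209), and by 0.71 without S1 sample 3 (adjusted p = 0.0424). MRPS10, the counterpart of bacterial S10, was dimmer, at 8.03, 8.06 and 8.21 in S1, 8.20, 8.32 and 8.42 in T4 and 8.24 to 8.84 (median 8.61) in T4R. All T4R samples were above all S1 samples, and T4R exceeded S1 by 0.48 ± 0.11 (adjusted p = 0.00496). MRPS22, whose inherited defects impair mitochondrial translation, was at 9.94, 9.74 and 9.601 in S1, at 9.42, 9.42 and 9.41 in T4 and at 9.10 to 9.55 (median 9.38) in T4R. All T4 and T4R samples lay below S1, by -0.40 ± 0.11 in T4 (adjusted p = 0.0134) and -0.36 ± 0.09 in T4R (adjusted p = 0.00908). The T4 call was lost without S1 sample 1.

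Across the 3 comparisons, 25 of the 48 genes were never called on the probe sets used. They include MRPS14 and MRPS18A, whose second probe sets were called in the fit of single probe sets. Of the 17 that fell in T4, 5 (MRPL13, MRPL15, MRPS22, MRPS30 and MRPS31) were not called between T4R and T4 and were also lower in T4R than in S1. A further 2 (MRPL57 and MRPS27) were higher in T4R than in T4 and still lower than in S1. Another 3 (MRPL40, MRPL48 and MRPS33) were higher in T4R than in T4 and not called against S1. The other 7 (MRPL24, MRPL33, MRPL44, MRPL46, MRPS12, MRPS18C and MRPS28) were called in T4 alone. These patterns were not counted over all genes, so whether they are particular to this group was not tested. The 3 comparisons also share samples.

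**Figure D3:**
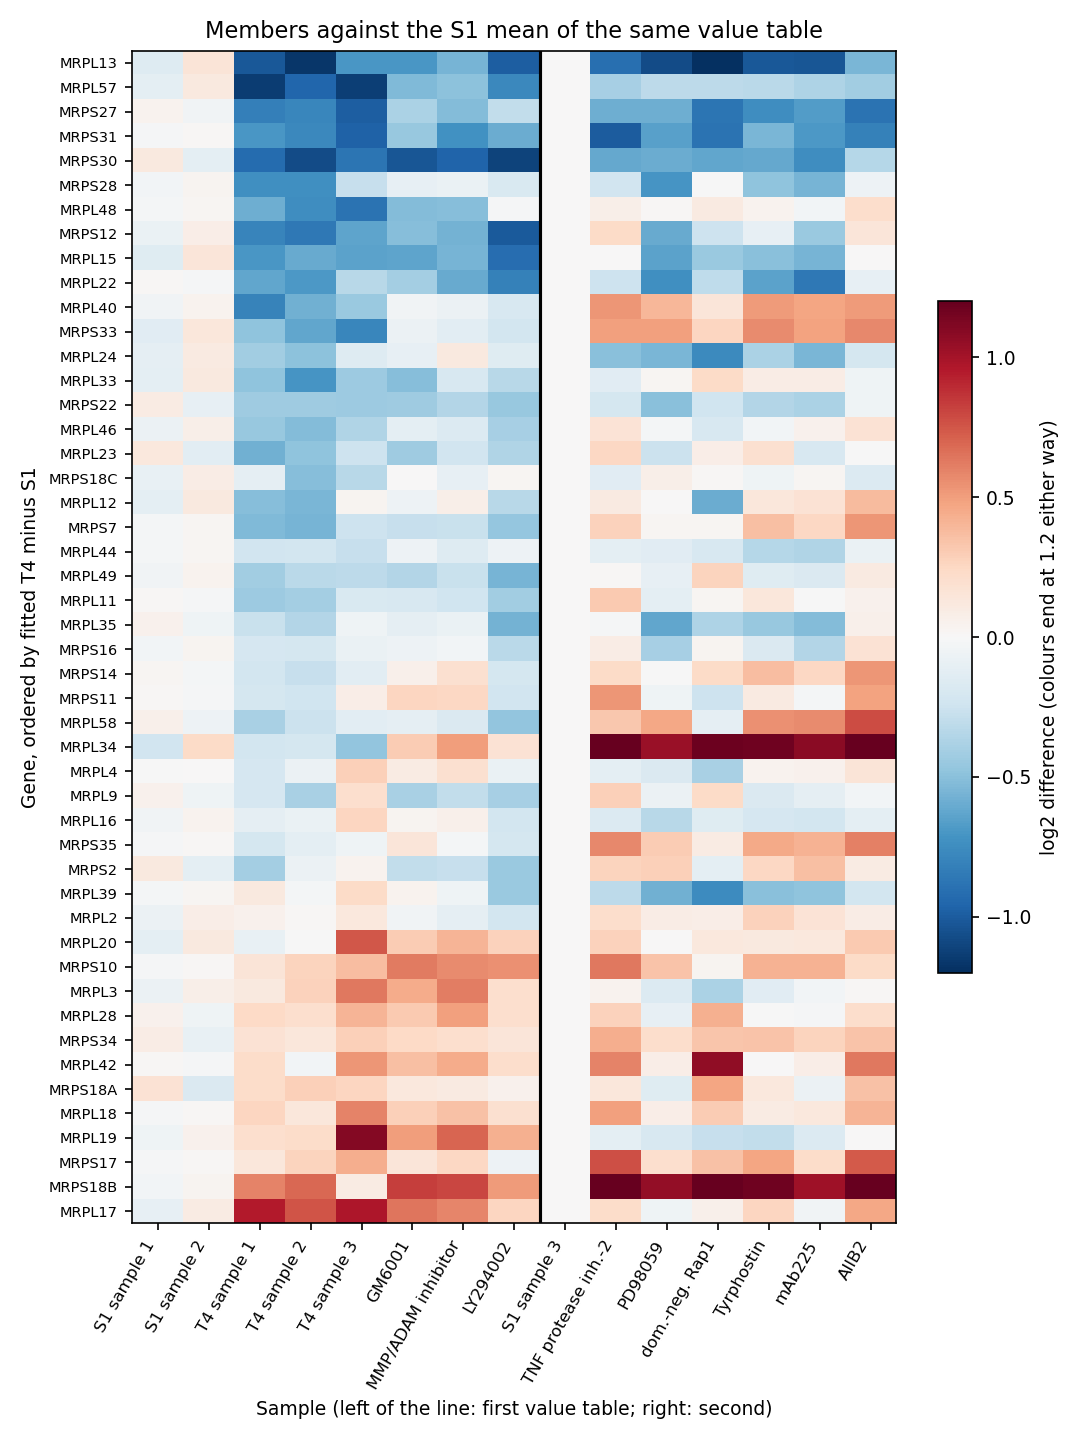
Log2 difference of each tested mitochondrial ribosomal protein in each sample from the S1 mean of the same table, with colours ending at ±1.2 and genes in rows; S1 sample 3 is 0 by construction as the only S1 sample of the second table. MRPL13 and MRPS31 are below S1 in all T4 and T4R samples, and MRPS18B is above S1 in all of them.

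Single agents have 1 sample each and were not tested. Set against S1 of the same table, the median over the 48 genes was -0.25, -0.30 and -0.13 in T4 samples 1 to 3. In the first table it was -0.06 with GM6001, -0.08 with MMPs and ADAMs and -0.22 with LY294002. In the second table, where the reference is S1 sample 3 alone, it was 0.15 with TNF protease inhibitor–2, 0.13 with AIIB2 and between -0.08 and 0.02 with the other 4 agents. The median over all genes was within 0.022 of 0 in every sample. For the 17 genes that fell in T4, chosen on these T4 samples, the medians were -0.64 to -0.71 in T4 and below 0 with every agent, from -0.07 with AIIB2 to -0.51 with PD98059.

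Against the T4 mean with the table term removed, 42 of 48 genes were above T4 with AIIB2 (median 0.27), 40 with TNF protease inhibitor–2 (0.21) and 39 with MMPs and ADAMs (0.19). At the other end, 24 were above T4 with PD98059 (median -0.01) and 18 with LY294002 (-0.06). GM6001 and Tyrphostin AG 1478 both had a median of 0.13, with 37 and 29 genes above T4. Dominant-negative Rap1 and mAb225 were at 0.06 and 0.05. For the agents of the second table this order depends on the table term, in which array type and agent are partly mixed. The untreated T4 samples themselves spread from 13 and 15 genes above their mean in samples 1 and 2 (medians -0.05 and -0.07) to 38 in sample 3 (median 0.12). By count and by median, LY294002, PD98059, dominant-negative Rap1 (28 genes) and mAb225 (26 genes) lay within the spread of untreated T4. By the count alone, GM6001 (37 genes) and Tyrphostin AG 1478 (29 genes) did too. The median of each, 0.125, was just above the 0.122 of T4 sample 3. MMPs and ADAMs lay just above that spread by the count (39 genes) and above it by the median (0.19). AIIB2 and TNF protease inhibitor–2 lay above it by both, with the table term removed.

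Single genes departed from these orders. MRPL13 was lowest against S1 with dominant-negative Rap1 (-1.2) and highest with AIIB2 (-0.55). MRPS27 was at -0.29 with LY294002 and at -0.89 with AIIB2. MRPS30 was at -1.12 with LY294002, lower than in any T4 sample, and at -0.34 with AIIB2. MRPL57 was above all T4 samples with all 9 agents, from -0.77 with LY294002 to -0.31 with dominant-negative Rap1. MRPS18B was highest with dominant-negative Rap1 (1.82) and lowest with LY294002 (0.51). MRPL17, high in T4 (0.75 to 0.97), was at 0.64 with GM6001 and 0.58 with MMPs and ADAMs and at -0.05 with PD98059 and -0.04 with mAb225.

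**Figure D4:**
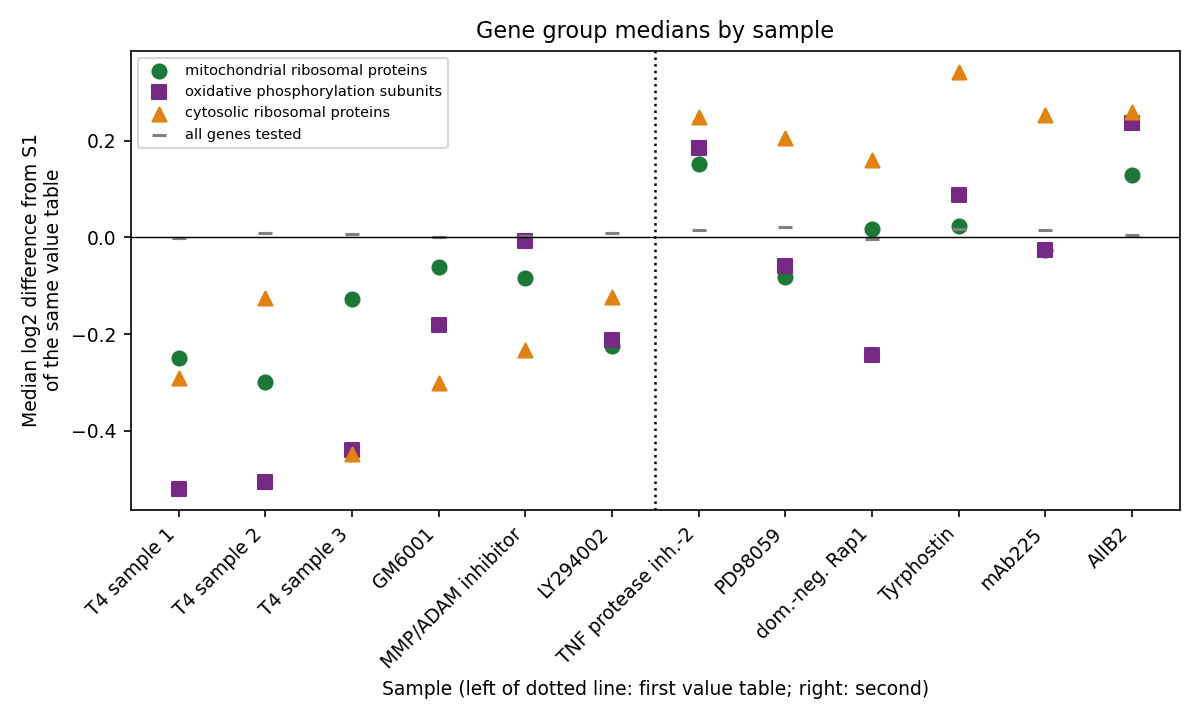
Median log2 difference from S1 of the same table in each sample for the mitochondrial ribosomal proteins, the oxidative phosphorylation subunits, the cytosolic ribosomal proteins and all genes. The mitochondrial ribosomal proteins lie at -0.30 to -0.13 in T4 and the oxidative phosphorylation subunits lower, at -0.52 to -0.44, while all genes stay near 0.

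Other gene groups give the setting. Over all genes 12.3% were called lower and 14.6% higher in T4 against S1, and 8.44% lower and 6.46% higher in T4R against T4. The nuclear-encoded subunits of oxidative phosphorylation, which assemble with the products of this ribosome, fell in T4 at 30 of 66 genes (45.5%) and rose at 1 (median -0.42). CYC1 (-1.99 ± 0.14, adjusted p = 5.18e-07) and UQCRC2 (-1.63 ± 0.15, adjusted p = 6.32e-06), both of the cytochrome bc1 complex, had the smallest p. In T4R against T4, 15 of the 66 rose (22.7%) and 0 fell (median 0.32). The cytosolic ribosomal proteins fell in T4 at 11 of 63 (17.5%, median -0.16), a share nearer to the 12.3% of all genes. Between T4R and T4, 0 were called by limma, although 12 had an unadjusted p under 0.05 and all 63 differences were above 0 (median 0.21). The mitochondrial ribosomal proteins, at 17 of 48 lower and a median of -0.20, lay between these lists, and the differences between lists were not tested. Of 8 proliferation markers 2 (25%), MKI67 and CCNA2, were called higher in T4, and all 8 differences were above 0, with a median of 1.23. Between T4R and T4, 1 of 8 (12.5%) was called, lower, and between T4R and S1 0 of 8 by limma, also at an unadjusted p under 0.05. Their median was -0.40 between T4R and T4, and against S1 sample 3 it was -1.90 with dominant-negative Rap1. Their part in the differences of the ribosomal proteins was not tested.

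Genes that work with the mitochondrial ribosome were called in both directions, and their shares are read against the 14.6% of all genes called higher and 12.3% called lower in T4. The list of subunits named otherwise held 4 tested genes, of which MRPL58 is also one of the members above. Of these 4, 1 fell in T4: PTCD3, a pentatricopeptide-repeat protein of the small subunit (-0.48 ± 0.10, adjusted p = 0.00305). Of 5 translation factors 2 fell and 0 rose: the initiation factor MTIF2 (-0.65 ± 0.12, adjusted p = 0.00153) and the release factor MTRF1 (-0.57 ± 0.17, adjusted p = 0.0205). Of 17 genes for ribosome assembly and RNA modification 3 fell (17.6%) and 1 rose (5.88%). METTL17, needed for small-subunit assembly, fell in T4 by 0.71 ± 0.13 (adjusted p = 0.00109) and was at -1.04 ± 0.10 in T4R against S1 (adjusted p = 1.46e-05). MTERF1, which binds mitochondrial DNA, fell by 0.29 ± 0.08 (adjusted p = 0.0142), and NGRN, which is needed for the large ribosomal RNA, rose (0.58 ± 0.13, adjusted p = 0.00551). Of 15 mitochondrial aminoacyl-tRNA synthetase genes 2 fell (13.3%) and 1 rose (6.67%). The shares of both lists are near or below those of all genes, but for the assembly genes called lower. FARS2, which charges mitochondrial tRNA with phenylalanine, fell by 1.11 ± 0.14 (adjusted p = 6.71e-05). GATB, part of the complex that makes glutamine-charged tRNA, fell by 0.84 ± 0.10 (adjusted p = 6.22e-05). GARS1, which serves the cytosol as well, rose by 1.39 ± 0.17 (adjusted p = 8.17e-05) and was lower in T4R than in T4 by -1.24 ± 0.16 (adjusted p = 0.000288).

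Of 14 genes for mitochondrial DNA and RNA maintenance 3 rose and 3 fell, 21.4% each, and of the 23 import genes 3 fell (13.0%) and 2 rose (8.7%). The import shares are near or below those of all genes. POLRMT, the mitochondrial RNA polymerase, rose (0.77 ± 0.20, adjusted p = 0.0112), and LRPPRC, which stabilises mitochondrial messenger RNAs, fell (-0.79 ± 0.13, adjusted p = 0.000616). TFAM, which packages mitochondrial DNA, differed by 0.00 ± 0.13 (adjusted p = 1.0). Among the import genes, the receptor TOMM70 (-0.55 ± 0.08, adjusted p = 0.000357) and the chaperonin HSPD1 (-0.68 ± 0.13, adjusted p = 0.00136) were lower in T4, as was PMPCB, a subunit of the peptidase that removes import signals (-0.70 ± 0.14, adjusted p = 0.00208). Of 10 regulators of mitochondrial biogenesis 3 rose (30%) and 1 fell (10%). The rises were those of YY1 (0.59 ± 0.13, adjusted p = 0.00396), PPRC1 (0.90 ± 0.20, adjusted p = 0.00524) and MYC (0.95 ± 0.33, adjusted p = 0.0446), and ESRRA fell (-0.51 ± 0.16, adjusted p = 0.0302). PPRC1, a coactivator of the PGC-1 family, was lower in T4R than in T4 (-0.81 ± 0.19, adjusted p = 0.0116).

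Promoters of these genes are shown because members that moved in opposite directions share letters near their start. The RefSeq promoters (GRCh38.p14, 250 bases before to 50 after the annotated start) matched 44 of the 50 genes. The YY1 letters AAGATGGC, searched on both strands, were in 12 of 44 (27.3%), against 3.03% of all 27305 promoters and 5.64% of the 7500 promoters of tested genes. In 10 of the 12 they lay in the sense strand, 8 to 35 bases after the start. They were in 4 of 14 matched genes that fell in T4 and in 7 of 28 other tested ones. MRPS27 and MRPS30 fell in T4, MRPS18B was higher in T4R, and all 3 hold them. MRPL17, which rose in T4, is the 1 gene of the 44 with the full NRF1 site (2.27%, against 1.36% of all and 2.25% of tested-gene promoters). Capitals mark the YY1 letters in the first 3 sequences, also the reverse complement of the SP1 letters GGGGCGGGG in MRPS27, and the NRF1 site in MRPL17. The regions are chr5:72320191-72320490 (minus strand) for MRPS27, chr5:44808697-44808996 (plus) for MRPS30, chr6:30617590-30617889 (plus) for MRPS18B and chr11:6683291-6683590 (minus) for MRPL17.
MRPS27: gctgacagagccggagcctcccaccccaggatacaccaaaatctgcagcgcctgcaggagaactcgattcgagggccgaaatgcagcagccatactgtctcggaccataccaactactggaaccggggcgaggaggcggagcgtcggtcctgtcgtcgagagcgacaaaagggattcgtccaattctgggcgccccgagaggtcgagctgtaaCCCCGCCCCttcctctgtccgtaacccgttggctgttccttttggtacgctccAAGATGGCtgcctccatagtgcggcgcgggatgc
MRPS30: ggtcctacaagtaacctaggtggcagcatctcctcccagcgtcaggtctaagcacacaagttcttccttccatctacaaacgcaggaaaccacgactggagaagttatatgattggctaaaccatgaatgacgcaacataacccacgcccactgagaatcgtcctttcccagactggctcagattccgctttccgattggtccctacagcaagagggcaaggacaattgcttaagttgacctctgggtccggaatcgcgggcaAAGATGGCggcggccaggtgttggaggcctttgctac
MRPS18B: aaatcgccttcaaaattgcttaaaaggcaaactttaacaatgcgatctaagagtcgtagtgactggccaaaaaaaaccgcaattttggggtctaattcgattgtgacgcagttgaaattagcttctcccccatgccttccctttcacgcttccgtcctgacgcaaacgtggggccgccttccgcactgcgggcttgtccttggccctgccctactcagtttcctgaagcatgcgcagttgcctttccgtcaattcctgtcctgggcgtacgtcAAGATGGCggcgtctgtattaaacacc
MRPL17: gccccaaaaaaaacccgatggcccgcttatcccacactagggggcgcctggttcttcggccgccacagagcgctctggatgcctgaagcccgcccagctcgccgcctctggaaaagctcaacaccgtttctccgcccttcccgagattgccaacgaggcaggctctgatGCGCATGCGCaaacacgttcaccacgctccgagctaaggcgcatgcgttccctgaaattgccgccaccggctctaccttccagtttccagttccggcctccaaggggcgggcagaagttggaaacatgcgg

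The ETS letters CCGGAAGT were in 6 of 44 promoters (13.6%, against 4.44% of all and 8.12% of tested-gene promoters), among them those of MRPS22 and MRPS34. The E-box CACGTG was in 3 (6.82%, against 7.43% and 10.1%), and the SP1 letters in 10 (22.7%, against 16% and 27.7%). A match describes the letters in this window and shows no binding.

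Several of these genes start beside another gene that is read the other way. Within 1000 bases of the start, 11 of the 44 matched genes (25%) had such a partner, against 10.3% of 15843 protein-coding genes and 13.0% of 7454 tested ones. MRPS27 starts 133 bases from PTCD2, which also fell in T4 (-0.75 ± 0.14, adjusted p = 0.00149). MRPL49 (-0.26 ± 0.13, adjusted p = 0.169) starts 49 bases from FAU, which codes for a cytosolic ribosomal protein and fell (-0.35 ± 0.11, adjusted p = 0.0333). MRPL40, which fell, starts 812 bases from HIRA (0.13 ± 0.26, adjusted p = 0.767). MRPL46, which fell, and MRPS11 (-0.11 ± 0.20, adjusted p = 0.737) are each other's partner, 320 bases apart. The other tested partners were not called in T4. They were TCP1 beside MRPL18 (0.09, adjusted p = 0.776) and SARS2 beside MRPS12 (-0.23, adjusted p = 0.154). PPP1R10 beside MRPS18B (-0.025, adjusted p = 0.939) and PIERCE1 beside MRPS2 (-0.21, adjusted p = 0.11) complete them. SKA3 beside MRPL57 and HELQ beside MRPS18C were not tested.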

How the data were processed

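The deposited values are log2 expression values per probe set, in 2 tables of different array types. Which software and normalization the authors used is not given in the sources used here. Of 22215 probe sets, 19707 had 1 gene, 614 several, 1706 none, and 188 were annotated differently in the 2 tables. Each gene was read from its probe set with the highest mean. Names and positions are RefSeq, GRCh38.p14. The dimmest 25% of genes by mean value were not tested.

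One limma 3.58.1 model (lmFit, eBayes; R 4.3.3) held S1, T4, T4R and the table, with 11 residual degrees of freedom, and was tested on simulated data. The number of arrays limits the precision. No column was left unused. Samples with the same number deviated together in S1 and T4 (correlations 0.28, 0.31 and 0.39), so the numbers were taken to pair them, from the data and not from the labels. The crossed correlations of samples 1 and 2 were as high (0.29 and 0.31), so the data set sample 3 apart and do not tell 1 from 2. The members and lists were chosen with earlier results of these data known. Genes were named by rule: among called members, the 10 largest changes each way in T4 against S1 and 5 in the other comparisons; the 3 highest and 3 lowest mean levels; MRPL3, MRPL11, MRPL12, MRPS12, MRPS16, MRPS18A to MRPS18C and MRPS30; and the 3 smallest p of each other list. The other called members, MRPS14, MRPL49, MRPS11, MYC, TFAM and genes that share a promoter region were named after their values were seen. Alternatives changed the filter, probe set, table term, normalization, block and samples.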

Additional observations from a re-analysis of the deposited data

Results flagged for a closer look

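MRPL48 with LY294002 was at 9.558 on the deposited log2 scale, apart from the other 8 T4R samples, the nearest of which was at 9.069. The gap took up 0.668 of the range over the 9 samples. Of 50 genes examined in T4R 1 stood out in this way, and chance marks about 1 in 20.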

How the results depend on the processing

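Only mitochondrial ribosomal proteins were followed through the alternatives. None of their differences called in the report changed sign in an alternative. Of the uncalled ones printed there, MRPL20 (T4 minus S1) turned from 0.17 to -0.051 with the replicate block with the table block and with the 3 samples named below left out, to -0.015 with array weights, and ran from -0.093 to 0.328 without 1 sample. MRPS11 and MRPS14 turned to 0.064 and 0.003 in the fit without a table term after quantile normalization across tables, and to 0.097 and 0.033 when the replicate block stood without the table term. MRPL40 (T4R minus S1) turned to -0.101 in the first table alone and with the 3 samples left out, to -0.027 with array weights, and ran from -0.101 to 0.199 without 1 sample. Between T4R and T4, MRPL13 turned to -0.01 in that same fit after quantile normalization across tables. MRPS30, near 0 there, gave 0.248 with the mean of all probe sets, 0.048 with quantile normalization within tables and -0.074 to 0.059 without 1 sample. In T4 against S1 (median -0.198, 1 higher, 17 lower) the replicate block with the table block gave a median of -0.302, 2 higher and 24 lower (10 calls added and 2 lost), and the replicate block without the table block -0.085, 2 higher and 5 lower. Leaving out 3 samples at once (dominant-negative Rap1 and sample 3 of S1 and of T4), chosen after seeing the data, gave -0.302 and 2 higher. Array weights, a filter at the median, no filter, the first table alone and quantile normalization within tables gave 2 higher, and the mean of all probe sets 3 higher. No table block with quantile normalization across tables left 7 lower. In T4R against S1, array weights called 10 higher and 17 lower (4 and 8 in the report), and the 3 samples left out gave 13 lower. In T4R against T4, the fit that both dropped the table block and normalized by quantiles across tables turned the median from 0.119 to -0.02 and left 3 higher. Array weights gave 18 higher and the 3 samples left out 11. No member was called lower in T4R than in T4 in the first table alone, with no filter, with only the groups compared, with quantile normalization within tables or with the 3 samples left out (0 by limma, 1 to 2 at an unadjusted p under 0.05, and 1 in the report). Leaving out 1 sample at a time gave medians of -0.249 to -0.152 with 1 to 2 higher and 7 to 18 lower for T4 against S1. It gave -0.123 to -0.037 with 3 to 5 higher and 6 to 9 lower for T4R against S1, and 0.078 to 0.192 with 4 to 7 higher and 0 to 1 lower for T4R against T4. Unadjusted p under 0.05 held for 24, 12 and 17 of 48 genes in T4 against S1, T4R against T4 and T4R against S1. The causes of these changes were not tested. T4 has no sample in the second table, and S1 has 1 there.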
